A study of Mus musculus with 6 samples.

Results

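The T cell receptor complex and thymocyte genes are 10 genes chosen by name: the invariant receptor chains Cd3e, Cd3d and Cd3g, the beta chain constant gene Trbc2, the co-receptor Cd8a, the recombinase Rag1, the transcription factors Tcf7, Lef1 and Foxp3, and the interleukin-7 receptor chain Il7r. They are 10 of 55401 gene IDs in the count table, and all 10 were among the 19833 tested genes. RNA was sequenced from aortas of 3 IL16-/-ApoE-/- samples (double mutants, which lack interleukin-16 and apolipoprotein E) and of 3 ApoE-/- samples, which lack apolipoprotein E alone. All mice carried the ApoE mutation and were given high-fat diet for 24 weeks, beginning when they were 8 weeks old. The labels used here state neither sex nor strain background, nor whether a sample was 1 animal. Every p-value therefore reflects variation among these 6 samples alone, and that variation may be technical.

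The T cell receptor reads antigen through its alpha and beta chains, whose variable parts are assembled in the thymus from gene segments by the RAG1 and RAG2 recombinase. These chains have almost no signalling tail of their own and signal through the CD3 delta, epsilon, gamma and zeta chains. Tcf7 and Lef1 encode related DNA-binding proteins of the Wnt pathway that are needed for thymocyte development and remain on in naive T cells, and Il7r encodes the chain by which lymphocytes take up the survival signal of interleukin-7. In atherosclerotic mice T cells lie in the plaque and, in larger number, in the adventitia and its lymphoid aggregates. Interleukin-16 is a chemoattractant cytokine that binds CD4.

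The double mutant libraries held 42861980 to 47208779 counts and the ApoE-/- libraries 65730552 to 85568269, so that the upper limit behind 0 counts (3 counts, counting error only) was 0.0630 to 0.0698 in the double mutants and 0.0358 to 0.0430 in ApoE-/- in CPM, the counts scaled to a common library size. Il16 had levels of 7.93, 12.1 and 12.2 CPM in the double mutants and of 28.3, 28.7 and 15.1 CPM in ApoE-/- (numbered 1 to 3 in each group) (log2 fold change -1.16, SE 0.32, adjusted p = 0.163 by edgeR's quasi-likelihood test). Its counts do not settle the labels, since no source used here states which stretch was deleted. Apoe, disrupted in both groups, was at 138, 183 and 137 CPM in the double mutants and at 45.0, 24.9 and 20.9 CPM in ApoE-/- (log2 fold change 2.34, SE 0.33, adjusted p = 0.0369). The biological coefficient of variation was 0.209 within the double mutants and 0.590 within ApoE-/-. Xist stood at 474 CPM in ApoE-/- 1 and at 0.497 to 6.21 CPM in the other 5 libraries, and the Y-linked Ddx3y at 0.143 CPM in ApoE-/- 1 and at 70.1 to 136 CPM elsewhere. The summed level of 7 kidney tubule markers was 491 to 546 CPM in the double mutants and 0 to 0.0477 CPM in ApoE-/-. Smooth muscle markers, which are not specific to aorta, were present in every library. Their sum was 8362 to 9481 CPM in the double mutants and 4182 to 26716 CPM in ApoE-/-.

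No member passed the threshold of an adjusted p under 0.05 in edgeR's quasi-likelihood test with all libraries, where 1.2% of tested genes passed, 1.14% as higher and 0.0605% as lower in the double mutants. At an unadjusted p under 0.05, 2 of the 10 members were higher (background 8.87%) and 0 lower, and DESeq2 called the same 2, Rag1 and Tcf7, at an adjusted p under 0.05 (background 4.77% higher). In 4 members (Rag1, Tcf7, Lef1 and Foxp3) every double mutant library lay above every ApoE-/- library, a pattern that 14.9% of all tested genes showed. In the other 6, the CD3 chains, Trbc2, Cd8a and Il7r, the groups overlapped. Rag1 reached the filter's level in all 3 double mutants and in 1 ApoE-/- library, so it was tested through the group where it was high. The 10 members were chosen with earlier results of these data known, so these counts are a description. The fold change was positive in 8 of the 10 members, against 46.4% of tested genes. Their median log2 fold change was 0.71, against -0.05 over all tested genes, and it was 0.16 without ApoE-/- 3 and 1.48 without ApoE-/- 1. In a sample of whole aorta, more cells of a type and more RNA per cell cannot be told apart.

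**Figure D1:**
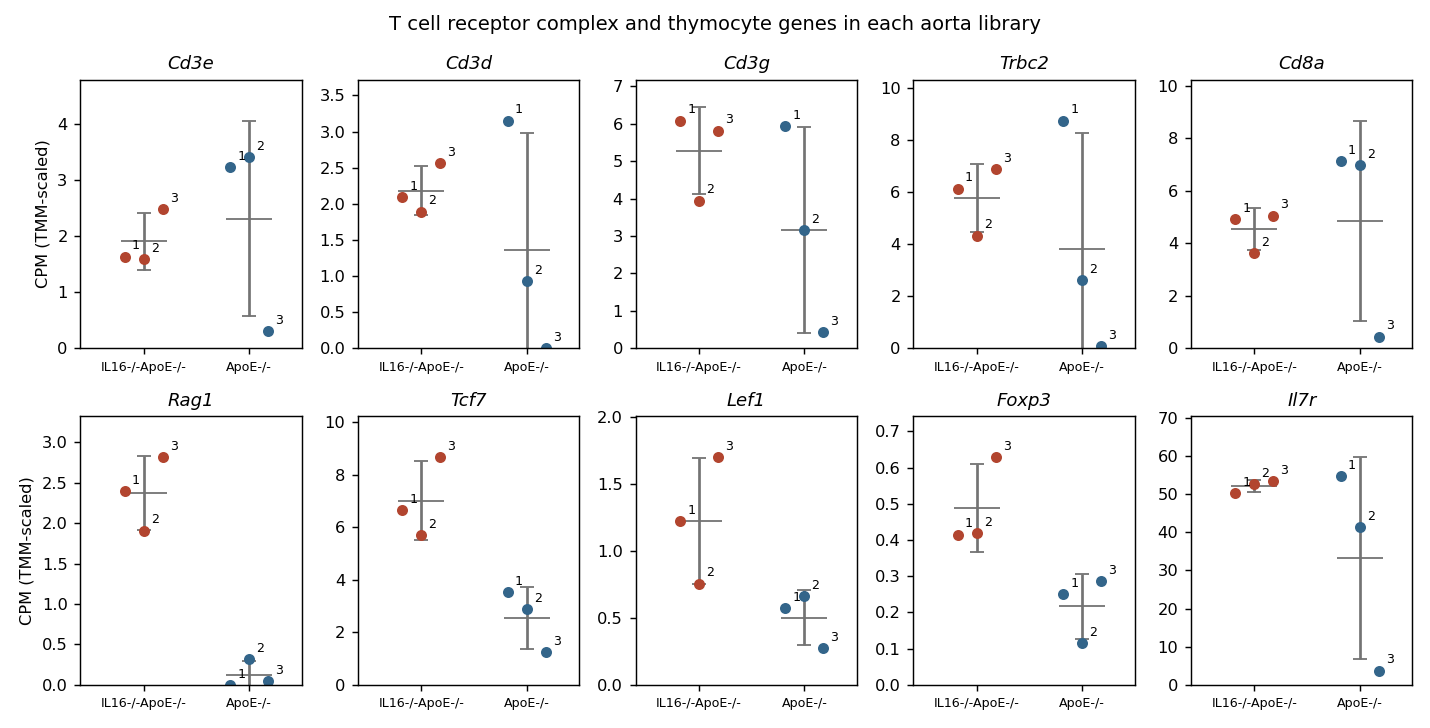
Level of each of the 10 genes (CPM, TMM-scaled) in the 3 IL16-/-ApoE-/- libraries (left, red) and the 3 ApoE-/- libraries (right, blue), with sample numbers beside the points; the horizontal mark is the mean and the bar the SD, cut off at 0. In the upper row ApoE-/- 3 lies far below the other 5 libraries, and in Rag1, Tcf7, Lef1 and Foxp3 all 3 double mutants lie above all 3 ApoE-/- libraries.

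The CD3 chains were at low levels that varied far more within ApoE-/- than between the groups. Cd3e (ENSMUSG00000032093, GRCm38 chromosome 9, 44998740 to 45009627, minus strand) encodes the epsilon chain, which pairs with delta or with gamma. It was at 1.64, 1.60 and 2.49 CPM in the double mutants, against 3.23, 3.41 and 0.298 CPM in ApoE-/- 1, 2 and 3. The double mutants lay below ApoE-/- 1 and 2 and above ApoE-/- 3. The log2 fold change was -0.28 (SE 0.82, adjusted p = 0.883 by edgeR's quasi-likelihood test). Cd3d (ENSMUSG00000032094, 44981786 to 44987339, plus strand) encodes the delta chain, which pairs with epsilon. It was at 2.10, 1.89 and 2.56 CPM in the double mutants and at 3.15, 0.932 and 0 CPM in ApoE-/-. With no count in ApoE-/- 3 and the highest value in ApoE-/- 1, its groups overlapped (log2 fold change 0.68, SE 1.39, adjusted p = 0.827). Cd3g (ENSMUSG00000002033, 44969572 to 44980431, minus strand), the gamma chain that forms the other CD3 dimer with epsilon, was at 6.08, 3.95 and 5.82 CPM in the double mutants and at 5.93, 3.16 and 0.423 CPM in ApoE-/-. ApoE-/- 1 was within the range of the double mutants, and the other 2 ApoE-/- libraries lay below it (log2 fold change 0.74, SE 0.82, adjusted p = 0.675).

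The 3 CD3 genes lie side by side on chromosome 9, and Cd3d and Cd3g are read in opposite directions from starts 1355 bases apart in GENCODE M21. The 250 bases before each RefSeq start (GRCm38.p6), read 5′ to 3′ on the gene's own strand, follow, since the CD3 genes lie so close together, and Rag1 is shown with them as the gene with the largest fold change of the 10. Capitals mark matches on either strand to CTTTGA (the core bound by TCF7 and LEF1), TGTGGT (RUNX proteins) or CAGGTG (E proteins). The stretches are chr9:45009612-45009861 (Cd3e, minus strand), chr9:44981536-44981785 (Cd3d, plus strand), chr9:44980432-44980681 (Cd3g, minus strand) and chr2:101649533-101649782 (Rag1, minus strand).
Cd3e: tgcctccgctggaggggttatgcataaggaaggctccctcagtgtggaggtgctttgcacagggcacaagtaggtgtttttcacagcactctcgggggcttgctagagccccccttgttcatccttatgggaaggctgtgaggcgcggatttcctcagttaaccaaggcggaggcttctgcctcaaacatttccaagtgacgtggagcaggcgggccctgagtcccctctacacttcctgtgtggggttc
Cd3d: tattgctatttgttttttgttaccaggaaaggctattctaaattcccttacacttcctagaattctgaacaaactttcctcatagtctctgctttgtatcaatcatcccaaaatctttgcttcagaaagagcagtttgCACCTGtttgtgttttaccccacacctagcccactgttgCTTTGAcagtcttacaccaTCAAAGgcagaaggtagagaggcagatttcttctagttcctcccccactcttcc
Cd3g: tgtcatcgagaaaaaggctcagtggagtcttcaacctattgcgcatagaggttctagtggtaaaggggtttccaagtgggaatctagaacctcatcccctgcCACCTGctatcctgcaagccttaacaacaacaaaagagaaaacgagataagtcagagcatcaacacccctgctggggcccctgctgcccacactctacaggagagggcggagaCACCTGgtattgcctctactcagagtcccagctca
Rag1: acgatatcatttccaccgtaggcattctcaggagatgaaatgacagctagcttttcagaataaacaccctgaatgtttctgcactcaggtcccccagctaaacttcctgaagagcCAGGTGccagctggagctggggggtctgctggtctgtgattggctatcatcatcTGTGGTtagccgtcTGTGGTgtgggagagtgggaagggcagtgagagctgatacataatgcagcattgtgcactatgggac

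The Cd3d stretch held 2 matches to CTTTGA, beginning 73 and 54 bases before the start, and 1 to CAGGTG, at 112 bases. The Cd3g stretch held 2 matches to CAGGTG, at 148 and 35 bases, and the Rag1 stretch held 2 to TGTGGT, at 81 and 67 bases, and 1 to CAGGTG, at 135 bases. The Cd3e stretch held none of the 3. Among 32851 RefSeq promoter stretches of this length, 13.8% held CTTTGA, 14.0% TGTGGT and 17.2% CAGGTG. RefSeq stretches were matched for 9 of the 10 members, with 14 starts in all. Outside the genes shown, 1 of the 4 Lef1 starts held CTTTGA 2 times, and no start of Cd8a, Tcf7, Foxp3 or Il7r held any of the 3 motifs. A match describes letters and not a bound site.

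Trbc2 and Cd8a followed the same order of libraries within ApoE-/-. Trbc2 (ENSMUSG00000076498, chromosome 6, 41546730 to 41548352, plus strand), one of the pair of constant genes of the receptor's beta chain, was at 6.13, 4.32 and 6.86 CPM in the double mutants and at 8.74, 2.62 and 0.0621 CPM in ApoE-/- (log2 fold change 0.60, SE 1.23, adjusted p = 0.827 by edgeR). The groups overlapped, with ApoE-/- 1 highest and 5 counts in ApoE-/- 3. Trbc2 shares most of its sequence with Trbc1, so the counting could have split reads between them. Summed, the pair was at 8.78, 7.07 and 10.8 CPM in the double mutants and at 15.2, 4.56 and 0.510 CPM in ApoE-/-, and Trbc2 held 61.1% to 69.8% of those counts in the double mutants and 57.4%, 57.5% and 12.2% in ApoE-/- 1, 2 and 3. Cd8a (ENSMUSG00000053977, chromosome 6, 71373427 to 71379173, plus strand), the co-receptor chain of cytotoxic T cells that some dendritic cells also carry, was at 4.93, 3.63 and 5.05 CPM in the double mutants. It was at 7.14, 6.97 and 0.435 CPM in ApoE-/- (log2 fold change -0.10, SE 0.87, adjusted p = 0.967). Cd8a thus lay below ApoE-/- 1 and 2 in every double mutant library and above ApoE-/- 3. Its partner Cd8b1, which is more restricted to T cells, was at 2.97, 1.51 and 1.95 CPM in the double mutants and at 5.16, 3.01 and 0 CPM in ApoE-/-.

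Among 14 other receptor chains and co-receptors, 0 passed the test in either direction, and 1 was higher at an unadjusted p under 0.05 (background 8.87%). In 3 of them every double mutant library lay above ApoE-/- (background 14.9%). All 14 were lowest in ApoE-/- 3, as were 8 of the 10 members, against 26.4% of all tested genes. The alpha chain constant gene Trac was at 2.90, 1.97 and 4.72 CPM in the double mutants and at 4.98, 2.70 and 0.0870 CPM in ApoE-/-. The gamma chain constant gene Tcrg-C1, which marks gamma-delta T cells and also unrearranged or sterile transcripts, was at 1.91, 1.97 and 1.91 CPM in the double mutants and at 0.525, 0.717 and 0.336 CPM in ApoE-/- (log2 fold change 1.87, SE 0.43, adjusted p = 0.115 by edgeR). It had the smallest p of that list but did not pass. Cd4, the co-receptor that binds interleukin-16 and is also found on macrophages, was at 15.4, 19.4 and 11.8 CPM in the double mutants and at 9.52, 6.88 and 1.45 CPM in ApoE-/- (log2 fold change 1.38, SE 0.63, adjusted p = 0.350).

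Of 17 genes of proximal receptor signalling, 0 passed and 0 had an unadjusted p under 0.05 (background 15.9%). The groups overlapped in all 17, while 26.4% of all tested genes had no overlap. The median log2 fold change of that list was -0.01, and 14 of the 17 were highest in ApoE-/- 1. The share of all tested genes that were highest in ApoE-/- 1 was not computed. The kinase Lck, which starts the signal, was at 7.26, 5.79 and 8.96 CPM in the double mutants and at 13.7, 5.18 and 0.920 CPM in ApoE-/-. Lck thus had its highest and its lowest value within ApoE-/-. Ubash3a, a negative regulator of the receptor signal, had a log2 fold change of -1.41 (SE 0.61, adjusted p = 0.329 by edgeR), and the exchange factor Vav1 had one of 0.83 (SE 0.71, adjusted p = 0.587).

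Variable segments, which are not among the members, were read in the same 6 libraries. Those of the alpha and beta loci belong to the same chains as Trac and Trbc2, so they are no separate support. Of 175 annotated variable segments of the 4 receptor loci, 22, 38 and 26 had at least 1 count in double mutants 1, 2 and 3, against 51, 37 and 8 in ApoE-/- 1, 2 and 3. Their counts summed to 3.43, 5.75 and 5.84 CPM in the double mutants and to 7.41, 4.00 and 0.733 CPM in ApoE-/-. ApoE-/- 1 was highest and ApoE-/- 3 lowest, and the double mutants lay between them. More segments can be seen in a deeper library, and reads of one segment can be counted to a related one, so the number of segments is a description of these libraries.

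Rag1 (ENSMUSG00000061311, chromosome 2, 101638282 to 101649501, minus strand) had levels of 2.40, 1.91 and 2.82 CPM in the double mutants (104, 91 and 121 counts), against 0, 0.316 and 0.0497 CPM in ApoE-/- 1, 2 and 3 (0, 22 and 4 counts). The lowest double mutant stood above the highest ApoE-/- value. The fitted log2 difference was 4.29 (SE 1.24, adjusted p = 0.181 by edgeR's quasi-likelihood test), and it did not pass. Rag1 reached the filter's level in all 3 double mutants and in 1 ApoE-/- library. It passed in DESeq2 (adjusted p = 0.00156), in limma-voom with sample weights (0.0407, background 9.39% higher) and in edgeR without ApoE-/- 1 (log2 fold change 3.70, adjusted p = 0.0235, background 13.1% higher), in a range over 14 alternatives of 0.00156 to 0.482. Without ApoE-/- 2, which held 22 of the ApoE-/- counts, the log2 fold change was 6.48 (adjusted p = 0.131). The annotated span of B230118H07Rik runs over the whole of Rag1 on the same strand. Exons were not compared, so whether reads of the 2 genes can be told apart is not known. B230118H07Rik was at 21.2, 22.3 and 24.0 CPM in the double mutants and at 24.2, 26.1 and 32.5 CPM in ApoE-/-, the opposite order of groups.

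The partner recombinase Rag2 had 12, 6 and 16 counts in the double mutants and none in the ApoE-/- libraries. The double mutant mean (0.258 ± 0.124 CPM, SD, n = 3) was 20.1 times the level of 3 counts over the summed ApoE-/- libraries. That level covers counting error only and the mean has its own spread, so 20.1 is not a lower limit. Rag2 was below the filter and was not tested. Dntt, the polymerase that adds untemplated bases at segment joints in developing T and B cells, was at 0.922, 0.756 and 1.79 CPM in the double mutants and at 0.0477, 0.287 and 0 CPM in ApoE-/- (log2 fold change 3.37, SE 1.29, adjusted p = 0.283 by edgeR). All 3 double mutants lay above ApoE-/- in both genes. Ptcra, the surrogate alpha chain that defines thymocytes before alpha chain assembly, had no count in any of the 6 libraries. Of 15 listed thymocyte development genes 13 were tested and 0 passed in either direction. At an unadjusted p under 0.05, 1 was higher (background 8.87%). In 2 every double mutant library lay above ApoE-/- (background 14.9%) and in 1 below (background 11.5%). The list's median log2 fold change was 0.36. The gene below was Tcf12, an E protein, with 70.4, 66.6 and 71.5 CPM in the double mutants and 74.9, 106 and 83.0 CPM in ApoE-/- (log2 fold change -0.34, SE 0.17, adjusted p = 0.385).

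Markers of thymic epithelium, the tissue that surrounds thymocytes, and of B cells, whose precursors also use RAG, were read beside Rag1. Of the thymic epithelial genes, the master regulator Foxn1 had 0 counts in all 3 double mutants and 8, 0 and 0 in ApoE-/- 1, 2 and 3. Psmb11, the thymus-specific proteasome subunit, had 0, 0 and 5 counts in the double mutants and none in ApoE-/-. Prss16 and Aire had no count in any double mutant library, against 44, 4 and 0 counts of Prss16 and 8, 3 and 0 of Aire in ApoE-/-. Epcam, a general epithelial gene of the list, was at 1.68, 1.72 and 1.58 CPM in the double mutants and at 0.883, 0.229 and 0.0497 CPM in ApoE-/-, with no overlap (log2 fold change 2.09, SE 0.93, adjusted p = 0.338 by edgeR). The keratin Krt8 had a log2 fold change of 0.88 and the chemokine Ccl25 one of -0.16, both with overlapping groups. Kidney tubule markers, also epithelial, summed to 491 to 546 CPM in the double mutants and to 0 to 0.0477 CPM in ApoE-/-. The part of that signal in Epcam and Krt8 was not tested. The summed level of the 8 thymic epithelial genes was 7.39 to 10.9 CPM in the double mutants and 5.29 to 35.5 CPM in ApoE-/-, where Krt5, another keratin, alone was at 18.2 and 29.3 CPM in ApoE-/- 1 and 2. Of 10 B cell markers, 0 passed and 4 were higher at an unadjusted p under 0.05 (background 8.87%). In 6 of them every double mutant library lay above ApoE-/- (background 14.9%). Their sum was 52.6, 42.3 and 68.4 CPM in the double mutants and 38.2, 24.7 and 4.61 CPM in ApoE-/-. The B cell sum and 6 of the 10 markers thus lay on the same side as Rag1, Dntt, Tcf7 and Lef1, while the groups overlapped in the other 4. All 6 vascular endothelial and 4 of 10 myeloid markers lay on that side too, so it is not particular to B cells. None of 8 NK and innate lymphoid or 6 smooth muscle markers did. The part of any of these cells in the values of Rag1, Dntt, Tcf7 and Lef1 was not tested.

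Tcf7 (ENSMUSG00000000782, chromosome 11, 52252371 to 52283014, minus strand) had levels of 6.64, 5.71 and 8.66 CPM in the double mutants and of 3.53, 2.87 and 1.23 CPM in ApoE-/-. The lowest double mutant was above the highest ApoE-/- library, and the spread within ApoE-/- was narrower than for the CD3 genes. The log2 fold change was 1.46 (SE 0.44, adjusted p = 0.201 by edgeR's quasi-likelihood test). Tcf7 passed in DESeq2 (adjusted p = 0.0338), in limma-voom with sample weights (0.0468) and in edgeR without ApoE-/- 1 (0.0343), in a range over 14 alternatives of 0.0338 to 0.529. Lef1 (ENSMUSG00000027985, chromosome 3, 131110471 to 131224356, plus strand), which is also used by endothelial and mesenchymal cells, was at 1.22, 0.756 and 1.70 CPM in the double mutants and at 0.573, 0.660 and 0.273 CPM in ApoE-/-. The groups did not overlap, though double mutant 2 lay close to ApoE-/- 2 (log2 fold change 1.28, SE 0.55, adjusted p = 0.323). Among 12 partners and targets of TCF/LEF proteins, 0 passed in either direction, and the median log2 fold change was -0.18. In 3 of them every double mutant library lay above ApoE-/- (background 14.9%) and in 1 below (background 11.5%). The Wnt inhibitor Dkk2 was at 9.31, 10.3 and 10.7 CPM in the double mutants and at 7.02, 4.93 and 6.80 CPM in ApoE-/- (log2 fold change 0.69, SE 0.23, adjusted p = 0.233). Tcf7l2, a related factor, was at 13.0, 11.9 and 12.4 CPM in the double mutants, against 12.6, 18.5 and 33.1 CPM in ApoE-/- (log2 fold change -0.78, SE 0.35, adjusted p = 0.343).

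Foxp3 (ENSMUSG00000039521, chromosome X, 7573644 to 7595245, plus strand), the factor that defines regulatory T cells, was near the limit of detection, with 18, 20 and 27 counts in the double mutants and 21, 8 and 23 in ApoE-/-. These were 0.415, 0.420 and 0.628 CPM in the double mutants and 0.251, 0.115 and 0.286 CPM in ApoE-/-, and the groups did not overlap (log2 fold change 1.16, SE 0.63, adjusted p = 0.408 by edgeR). Foxp3 was the only member of the 10 that was highest within ApoE-/- in ApoE-/- 3. Its annotated span overlaps Ccdc22, Gm36995 and Ppp1r3f on the other strand and Flicr on its own, so its few counts are uncertain. Of 11 other regulatory T cell genes, 0 passed, 4 had positive and 7 negative fold changes, and the median log2 value was -0.04. The interleukin-2 receptor chain Il2ra was at 2.03, 3.40 and 4.07 CPM in the double mutants and at 1.60, 1.32 and 0.149 CPM in ApoE-/- (log2 fold change 1.63, SE 0.81, adjusted p = 0.381). Tnfrsf18, or GITR, was at 0.991, 1.99 and 1.30 CPM in the double mutants, against 2.30, 3.60 and 1.91 CPM in ApoE-/- (log2 fold change -0.86, SE 0.43, adjusted p = 0.382).

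Il7r (ENSMUSG00000003882, chromosome 15, 9505788 to 9530176, minus strand) was the most abundant of the 10 and the most even within the double mutants. It was at 50.3, 52.7 and 53.4 CPM in the double mutants and at 54.7, 41.3 and 3.74 CPM in ApoE-/-. ApoE-/- 1 was above all double mutants and ApoE-/- 3 far below, so that the groups overlapped (log2 fold change 0.65, SE 0.80, adjusted p = 0.707 by edgeR). Without ApoE-/- 3 the log2 fold change was 0.12, and without ApoE-/- 1 it was 1.21. Innate lymphoid cells and lymphatic endothelium carry Il7r as well as T cells. Of 11 genes of the interleukin-7 axis, 0 passed, and the median log2 fold change was -0.01. At an unadjusted p under 0.05, 1 was lower, as were 1394 of all 19833 tested genes. That 1 was the signal transducer Stat5b, at 51.1, 58.3 and 57.3 CPM in the double mutants and 69.1, 75.5 and 64.9 CPM in ApoE-/- (log2 fold change -0.33, SE 0.14, adjusted p = 0.314). The survival factor Bcl2 was at 28.0, 29.1 and 31.2 CPM in the double mutants, against 24.5, 60.4 and 75.9 CPM in ApoE-/- (log2 fold change -0.86, SE 0.39, adjusted p = 0.344). Of 12 homing and memory genes 11 were tested and 0 passed. The egress receptor S1pr1, which lets lymphocytes leave lymphoid organs, had a log2 fold change of 0.54 (SE 0.32, adjusted p = 0.437).

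**Figure D2:**
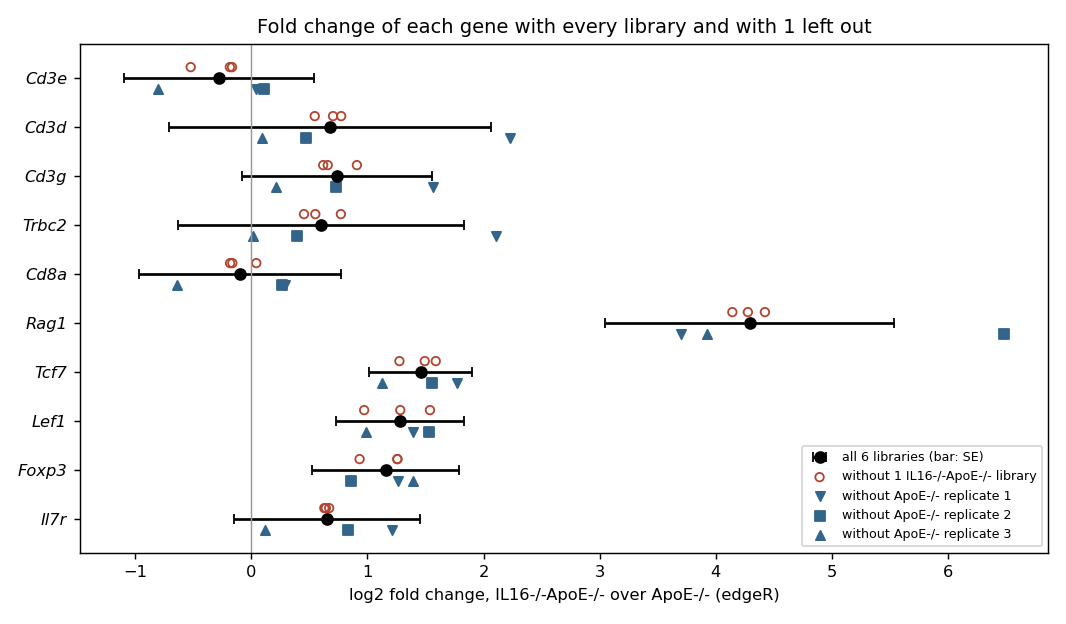
Log2 fold change of IL16-/-ApoE-/- over ApoE-/- for each of the 10 genes in edgeR with all 6 libraries (black, bar = SE), without 1 IL16-/-ApoE-/- library (open red circles) and without ApoE-/- 1, 2 or 3 (blue). Rag1, Tcf7, Lef1 and Foxp3 stay above 0 in every fit shown, while Cd3e and Cd8a lie on both sides of 0 and Cd3d, Cd3g, Trbc2 and Il7r approach 0 without ApoE-/- 3.

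The position of the CD3, Trbc2, Cd8a and Il7r values depended on single ApoE-/- libraries. Without ApoE-/- 1, every double mutant library lay above the remaining ApoE-/- libraries in 8 of the 10 members, those other than Cd3e and Cd8a, against 30.6% of all tested genes. Without ApoE-/- 3, Cd3e and Cd8a lay below in every double mutant library, against 16.3% of all tested genes, and Rag1, Tcf7, Lef1 and Foxp3, already apart with all libraries, lay above, against 18.5%. The log2 fold change of Cd3e was -0.80 without ApoE-/- 3 (adjusted p = 0.351 by edgeR) and 0.04 without ApoE-/- 1 (0.979). The log2 fold change of Trbc2 was 0.02 without ApoE-/- 3 and 2.11 without ApoE-/- 1 (adjusted p = 0.992 and 0.264). The log2 fold change of Cd3d was 0.09 without ApoE-/- 3 and 2.23 without ApoE-/- 1, and that of Cd3g was 0.21 and 1.56.

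Compared per length, as CPM per kilobase of transcript, the order of levels was the same at its top in both groups. Within the double mutants the mean was 14.8 for Il7r, 8.34 for Trbc2, 5.16 for Cd3g, 3.32 for Tcf7, 1.49 for Cd8a, 1.35 for Cd3d, 1.30 for Cd3e, 0.363 for Lef1, 0.359 for Rag1 and 0.168 for Foxp3 CPM per kilobase. The ranges of Cd3g and Tcf7, of Cd8a and Cd3d, of Cd3d and Cd3e, and of Lef1 and Rag1 overlapped, and those of the other 5 neighbouring pairs were apart. Within libraries, however, Cd3g was above Tcf7 and Cd8a above Cd3d in 3 of 3 double mutants, Cd3d above Cd3e in 2 and Lef1 above Rag1 in 1, so that the order of the last pairs, Cd3d with Cd3e and Lef1 with Rag1, was not the same in each library. Within ApoE-/- the mean was 9.42 for Il7r, 5.50 for Trbc2, 3.10 for Cd3g, 1.59 for Cd8a, 1.58 for Cd3e, 1.21 for Tcf7, 0.842 for Cd3d, 0.149 for Lef1, 0.0749 for Foxp3 and 0.0184 for Rag1 CPM per kilobase. The ranges of all 9 neighbouring pairs overlapped there, with Il7r above Trbc2 and Cd3g above Cd8a in 3 of 3 libraries. Rag1 took the ninth place in the double mutants and the last in ApoE-/-. Although the CD3 chains sit in the receptor in fixed proportion, Cd3g was above Cd3e and Cd3d per kilobase in each of the 6 libraries.

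Ratios to the summed Cd3e, Cd3d and Cd3g counts of the same library, which do not depend on scaling between libraries, set the members against the T cell signal itself. The CD3 counts were 426, 354 and 467 in the double mutants and 1032, 523 and 58 in ApoE-/-. Rag1 counts came to 24.4%, 25.7% and 25.9% of the CD3 counts in the double mutants and to 0%, 4.21% and 6.90% in ApoE-/-. The groups did not overlap and the 3 double mutants were close to each other (difference in log2 ratio 4.44, exact permutation p = 0.10, two-sided, the smallest that 3 against 3 samples allow). Its size rested on the 0 counts of ApoE-/- 1: the difference was 2.14 without that library, 5.38 without ApoE-/- 2, 5.80 without ApoE-/- 3, and 3.64 with 2 counts added in place of 0.5. Tcf7 came to 67.6%, 76.8% and 79.7% in the double mutants and to 28.7%, 38.2% and 171% in ApoE-/-, so that its groups overlapped through ApoE-/- 3 (difference 0.38, exact permutation p = 0.70). Lef1 overlapped in the same way, at 12.4%, 10.2% and 15.6% in the double mutants against 4.65%, 8.80% and 37.9% in ApoE-/-, as did Foxp3, at 4.23%, 5.65% and 5.78% in the double mutants against 2.03%, 1.53% and 39.7% in ApoE-/-. The separation of Tcf7, Lef1 and Foxp3 seen in CPM was therefore not seen relative to CD3 counts in the library with the fewest of them.

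Cd8a was below ApoE-/- in every double mutant relative to the CD3 counts, at 50.2%, 48.9% and 46.5% in the double mutants against 57.9%, 92.9% and 60.3% in ApoE-/- (difference in log2 ratio -0.50, exact permutation p = 0.10). Cd3e itself was 16.7%, 21.5% and 22.9% of the CD3 counts in the double mutants and 26.3%, 45.5% and 41.4% in ApoE-/-, again with no overlap (difference -0.86, exact permutation p = 0.10). Cd3e is part of the sum it is divided by, so its share also falls where Cd3d or Cd3g is higher. Cd3d was 21.4%, 25.4% and 23.6% of that sum in the double mutants and 25.6%, 12.4% and 0% in ApoE-/-. Il7r came to 512%, 709% and 491% of the CD3 counts in the double mutants and to 444%, 550.1% and 519% in ApoE-/-, the most even ratio within ApoE-/- of the 10 (difference 0.17, exact permutation p = 0.60). Adjusted over the 10 members, the smallest p was 0.333.

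**Figure D3:**
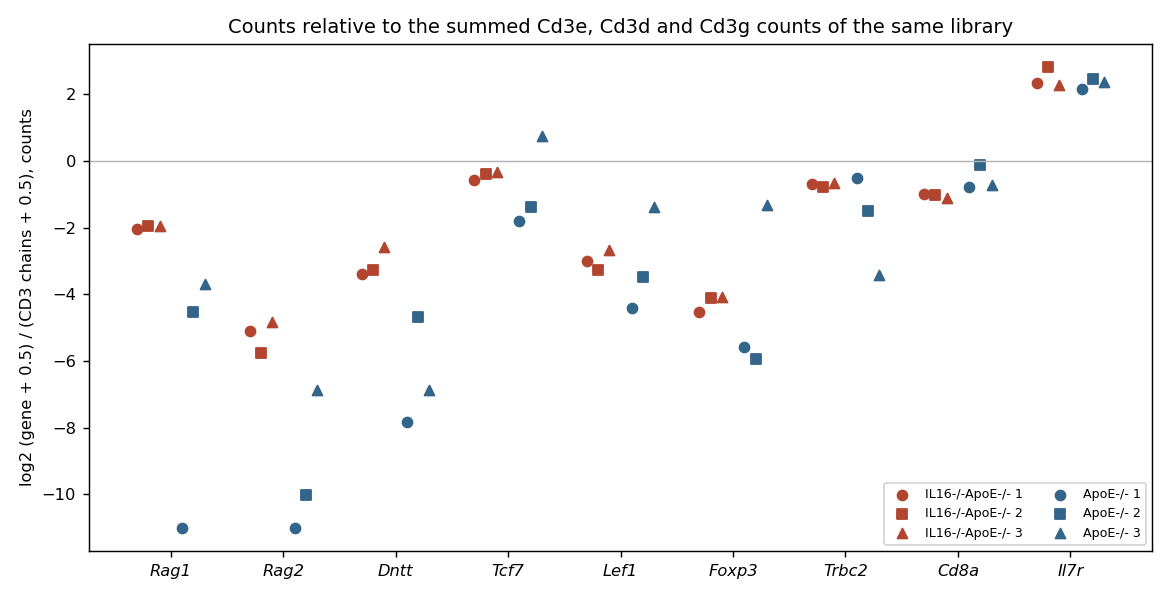
Log2 ratio of each gene's counts to the summed Cd3e, Cd3d and Cd3g counts of the same library, with 0.5 added to both, in the IL16-/-ApoE-/- libraries (red) and the ApoE-/- libraries (blue); symbols give the sample number. Rag1, Rag2 and Dntt lie higher in all 3 double mutants, where points near the bottom are libraries with few or no counts whose place depends on the 0.5 added, while ApoE-/- 3 is above the double mutants for Tcf7, Lef1 and Foxp3.

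The low T cell signal of ApoE-/- 3 went with low sums of myeloid and B cell markers and a low Ptprc level. The 10 genes summed to 81.8, 76.9 and 89.9 CPM in the double mutants and to 87.2, 62.3 and 6.80 CPM in ApoE-/-. Ptprc, the common leukocyte antigen CD45, was at 93.3, 107 and 99.3 CPM in the double mutants and at 155, 102 and 21.7 CPM in ApoE-/-. The 10 myeloid markers summed to 4385 to 6164 CPM in the double mutants and to 4428, 2265 and 344 CPM in ApoE-/- 1, 2 and 3. Smooth muscle markers ran the other way, at 8362 to 9481 CPM in the double mutants and at 4182, 18521 and 26716 CPM in ApoE-/-. Adipocyte markers summed to 4371 to 4709 CPM in the double mutants and to 4570, 597 and 580 CPM in ApoE-/-. Of 8 markers of NK and innate lymphoid cells, all had negative fold changes, 0 passed, and their sum was 45.8 to 49.0 CPM in the double mutants and 70.9 to 86.1 CPM in ApoE-/-. Most of that sum was Rora, at 34.0, 33.7 and 39.7 CPM in the double mutants and 41.5, 72.6 and 66.9 CPM in ApoE-/-. The other 7 markers summed to 12.7, 12.2 and 9.31 CPM in the double mutants and to 32.3, 13.5 and 3.96 CPM in ApoE-/-, where all 7 were lowest in ApoE-/- 3 and the groups overlapped. In lymph node stroma and lymphatic endothelium 0 of 7 tested genes passed, with sums of 105 to 135 CPM in the double mutants and 237, 74.0 and 32.8 CPM in ApoE-/-. All 6 vascular endothelial markers lay above ApoE-/- in every double mutant library (background 14.9%), 0 of them past the threshold. The part of tissue makeup, the kidney tubule signal included, in the values of the 10 genes was not tested.

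**Figure D4:**
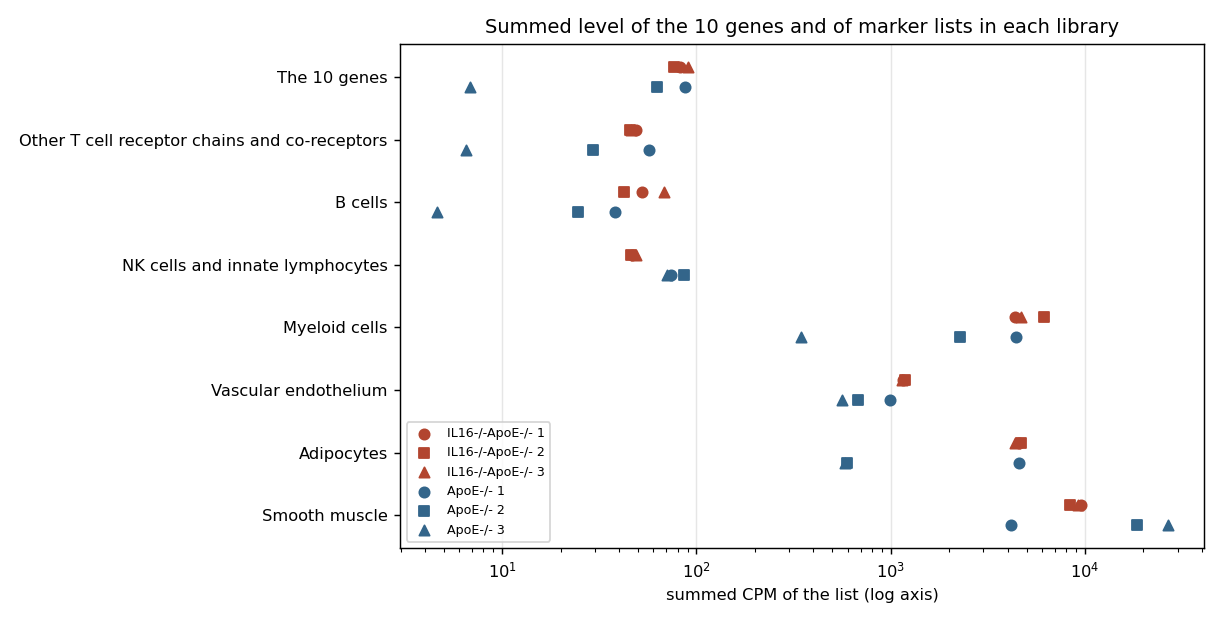
Summed CPM of the 10 genes and of marker lists in each IL16-/-ApoE-/- library (red, upper row of each pair) and each ApoE-/- library (blue, lower row) on a log axis; symbols give the sample number. The T cell, B cell and myeloid sums of ApoE-/- 3 lie far to the left, its smooth muscle sum lies farthest to the right, and the double mutants lie close together in each list.

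Among the genes most like Cd3e across the 6 libraries were Knl1, Zfp605, Lifr and Melk, by the root mean square difference of log2 CPM centred on each gene's mean. That difference was 0.22 for the kinetochore gene Knl1 and the zinc finger gene Zfp605, 0.24 for the cytokine receptor Lifr and 0.25 for the mitotic kinase Melk, over 6 libraries. Among the members, Cd8a was nearest to Cd3e (0.32, rank 19 of the tested genes) and Rag1 farthest (2.56, rank 19577). Knl1, Zfp605, Lifr and Melk had their lowest value in ApoE-/- 3, as Cd3e did. They were chosen for likeness to Cd3e over these same libraries, so this follows from the choice and is no separate result.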

How the data were processed

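Poly(A) RNA from aorta was sequenced from strand-marked libraries, per the labels' protocols, and cutadapt, HISAT2 and StringTie are named in the submitters' processing notes. The authors deposited raw counts per gene. The counter, its strand setting, the build and the annotation were not given in the sources used here. Positions and lengths come from GENCODE M21 (GRCm38) and promoter sequences from RefSeq (GRCm38.p6), matched by gene ID or symbol.

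Counts were tested with edgeR 4.0.16 (quasi-likelihood test, TMM factors, robust fit, filterByExpr with a minimum count of 10 and total of 15), comparing 3 IL16-/-ApoE-/- with 3 ApoE-/- libraries, and p-values were adjusted by Benjamini-Hochberg over all 19833 tested genes, with a threshold of 0.05. CPM are counts over the TMM-scaled library size. Ratios to the summed CD3 counts, with 0.5 added, were compared by two-sided exact permutation tests (scipy 1.17.1). Alternatives were other scaling, filters, DESeq2 1.42.0, limma-voom (limma 3.58.1), a replicate block and leaving out each library; limma-voom with sample weights, and the counts of members whose groups do not overlap with each library left out, were added after the data were seen.

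The 10 genes, the other gene lists and the marker lists were chosen with earlier results of these data known. By rule, the text names all 10 members, Il16 and Apoe, from each list up to 4 genes past the threshold by smallest p or, where none passed, the 2 with the smallest p, and the 5 genes most like Cd3e; other genes were chosen after their values were seen, and 2 genes the rule picked are not reported here. No 2 libraries of the same group agreed within sampling noise.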

Additional observations from a re-analysis of the deposited data

How the results depend on the processing

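The counts over all genes depended on the ApoE-/- libraries and on the tool. Genes higher in the double mutants numbered 226 in edgeR, 1133 in DESeq2, 386 in limma-voom, 1863 with sample weights and 0 with the replicate block, and 0 to 2651 with 1 library left out. Genes lower in the double mutants numbered 12, 347, 23, 1488 and 0 in the same order, and 0 to 2580 with 1 library left out. At an unadjusted p under 0.05 the block gave 2408 genes and the fits without a double mutant library 1920 to 2042. The highest counts came without ApoE-/- 1. Members called numbered 0 in edgeR, 2 in DESeq2, 2 with sample weights, and 0 to 2 with 1 library left out. The tools called 1.14%, 4.77% and 9.39% of their tested genes higher, in the same order. Without ApoE-/- 1, the fit that called 2 members, that share was 13.1%. With 1 library left out, members with every double mutant library above ApoE-/- numbered 4 to 8, against 17.2% to 30.6% of all tested genes. Members below numbered 0 to 2, against 14.2% to 28.9%. The 8 came without ApoE-/- 1, where the share was 30.6%, and the 2 without ApoE-/- 3, where it was 16.3%. Same-numbered libraries had correlations of -0.040, -0.027 and -0.0095 in their deviations, and 0 of 6 libraries correlated best with its own number, so the replicate numbers were not taken as pairs.

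Of 138 fits of a member under an alternative, 122 kept direction and side of the threshold, 6 passed it (Rag1 and Tcf7) and 10 turned direction. Kept direction does not mean a kept size: limma-voom gave 3.06 for Cd3d, 2.29 for Trbc2 and 5.73 for Rag1, against 0.68, 0.60 and 4.29 in edgeR. Cd3e turned to 0.34 in limma-voom, 0.11 with the block, 0.04 without ApoE-/- 1 and 0.11 without ApoE-/- 2 (log2). Cd8a turned to 0.70 in limma-voom, 0.15 with sample weights, 0.45 with the block, 0.04 without double mutant 2, 0.29 without ApoE-/- 1 and 0.26 without ApoE-/- 2. Log2 ratios to CD3 counts turned for Tcf7 to -0.11 without ApoE-/- 1, for Lef1 to -0.04 without double mutant 3, -0.55 without ApoE-/- 1 and -0.09 without ApoE-/- 2, and for Foxp3 to -0.025 and -0.038 without double mutants 2 and 3 and to -0.61 and -0.79 without ApoE-/- 1 and 2. Without ApoE-/- 3 the values were -0.80 for Cd3e and -0.64 for Cd8a, and the ratios 1.17 for Tcf7, 0.97 for Lef1 and 1.52 for Foxp3. The causes were not tested. A filter of 1 CPM in 3 libraries left out Lef1 and Foxp3, whose counts of 8 to 73 limit their precision.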
